A study of Mus musculus with 10 samples.

Results

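The genes described are those of the proteins of the cytosolic ribosome, taken from the deposited tables by symbol (names starting with Rpl or Rps and a number, the 3 Rplp genes and Rpsa) where the exon counts averaged at least 100 over the 22 exon columns. Of 38087 rows, 77 symbols matched and 76 passed, 31 of the small subunit (40S) and 45 of the large subunit (60S). Rpl13 was the symbol left out, listed at 0 in every exon column, and Rpl29 had the lowest average among those kept, 2544 counts. The row named Rpl24 carries an identifier that GENCODE M21 gives to its neighbour Zbtb11, so it is not certain which gene it counts. It is kept here as the rule asks, and the main counts are also given without it. The row named Rps3a is Rps3a1 in GENCODE.

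The cytosolic ribosome translates the mRNAs of the nucleus, and its proteins are assembled on ribosomal RNA in the nucleolus. Ribosomal protein mRNAs are short and abundant, and in mammals most start with a cytosine followed by an unbroken run of pyrimidines, the terminal oligopyrimidine motif, through which mTOR and the RNA-binding protein Larp1 control their translation and stability. Many of their introns hold small nucleolar RNAs, which guide the modification of ribosomal RNA.

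Total RNA of wild-type NIH3T3 cells, an established mouse fibroblast line, was depleted of ribosomal RNA and sequenced as paired-end, strand-specific libraries. The cells were seeded at 37 °C, held for 16 h at 38 or 33 °C and then switched to the opposite one. In the downshift course (38 to 33 °C) and in the upshift course (33 to 38 °C) 1 sample was taken at each of 0, 1, 3, 6 and 9 h, which gives 10 samples. No sample stayed at its first temperature, so time after the shift and temperature cannot be told apart within a course.

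Each sample has 2 columns of exon counts and 2 of intron counts, named by numbered series: 5 and 11 in the downshift course, 2 and 13 in the upshift course. The columns of series 2 and 5 were taken as a pair, and those of series 11 and 13 as another. The labels do not link a series of one course to a series of the other, so this pairing was a choice. No term for the pair entered the main fit, which summed the columns of a sample with an offset for the single series. Each pair was also analysed alone. How alike the columns of a pair are is not shown here. The labels do not say whether the columns are separate cultures. Exon columns held 22403625 to 48004854 counts and intron columns 15313374 to 25233405. Fibroblast genes were abundant (the summed level of 8 markers was 17400 to 28100 CPM, counts scaled to a fixed library depth), and markers of epithelial, leukocyte and endothelial cells summed to at most 5.4 CPM for any type, with Cd3e at 0 in every sample and Epcam, Krt18 and Kdr near 0. The cold-inducible gene Cirbp differed between the shifts by 7.33 ± 0.59 (SE) and Rbm3 by 2.31 ± 0.26 on the log2 scale, higher after the downshift.

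The annotated transcription starts were searched for a run of pyrimidines. RefSeq's promoter table (GRCm38.p6) held a start for 55 of the 76 genes on the gene's own chromosome and strand. An unbroken run of at least 6 C or T that came within 3 bases of the annotated start was found in 26 of them (47.3%), against 19.3% of all 27025 genes of the table. A cytosine at the start base was not required, and the longest run had a median of 5 bases over the 55 genes. The windows below run from 15 bases before the start to the 14th base after the start base, and capitals mark the longest run of C or T at the start. The first 5 carry a long run, and the last 4 are genes described below whose annotated start lacks one.
Rps6 (chr4:86857353-86857382, minus strand): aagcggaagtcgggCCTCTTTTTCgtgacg
Rplp2 (chr7:141447636-141447665, plus strand): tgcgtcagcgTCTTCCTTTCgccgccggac
Rpl38 (chr11:114668565-114668594, plus strand): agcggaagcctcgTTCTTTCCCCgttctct
Rps15a (chr7:118116133-118116162, minus strand): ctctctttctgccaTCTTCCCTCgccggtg
Rpl27a (chr7:109519180-109519209, plus strand): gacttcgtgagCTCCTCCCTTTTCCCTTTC
Rps25 (chr9:44407699-44407728, plus strand): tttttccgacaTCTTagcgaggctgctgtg
Rps13 (chr7:116334176-116334205, minus strand): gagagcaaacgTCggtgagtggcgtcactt
Rps16 (chr7:28350674-28350703, plus strand): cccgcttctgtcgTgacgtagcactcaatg
Rpl11 (chr4:136053379-136053408, minus strand): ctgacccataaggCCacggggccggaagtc

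Start sites in these tables are single annotated positions, and a start a few bases away would change the run that is read. Within the 300 bases of each promoter, the ETS core CCGGAAG on either strand was found in 24 of the 55 genes (43.6%), against 9.93% of all genes. AAGATGGC, a YY1 site, was found in 4 (7.27%), against 3.19%. The median exon change after the downshift was 0.20 in the 26 genes with the run and 0.17 in the 29 without it. Of those genes, 19 of 26 with the run and 14 of 29 without it rose after the downshift, against 15.7% of all tested genes. Whether the genes with and without the run differed was not tested.

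Ribosomal protein mRNAs were among the most abundant of the cells. Per length, the median gene of the set stood at 269 RPKM (reads per kilobase of exon, scaled for depth), against 8.71 for all 10174 genes tested, and 73 of the 76 lay above the 90th percentile. The highest were Rplp1 (1973 RPKM) and Rplp0 (1494), proteins of the stalk that binds translation factors, followed by Rps15 (1324), Rpl8 (1192) and Rpl32 (985). The lowest were Rpl35a (30.7), the row named Rpl24 (36.7) and Rpl34 (41.6). These values divide by the union of all annotated exons, which is 3526 bases for Rpl35a and 491 for its shortest RefSeq mRNA. With the mRNA length in place of the union, Rpl35a stood at 221 RPKM and Rpl34 at 229, and 4 of the 5 highest genes stayed the same. The rows with the name of a pseudogene of these genes, 171 with reads, held 1.26% as many exon reads as the genes themselves. How the counting shared reads between a gene and its processed pseudogenes is not known from the labels or headers, and single-gene values are uncertain to that extent.

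In all, the 76 genes held 4.56, 4.74, 4.81, 5.15 and 5.17% of exon reads at 0, 1, 3, 6 and 9 h of the downshift. In the upshift course they held 4.13, 4.37, 4.39, 4.34 and 4.40% at the same times. The share was thus higher at 9 h than at 0 h in both courses, by 0.608 percentage points after the downshift and 0.272 after the upshift. The columns of the samples did not move alike. In series 5 the share went from 4.41 to 5.51% and in series 2 from 4.30 to 5.15%, so it was higher at the end in both courses. In series 11 it went from 4.71 to 4.83% and in series 13 from 3.95 to 3.65%. These shares are relative to the library, and in RNA from a whole culture a change in the number of cells of a kind and a change in RNA per cell cannot be told apart.

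**Figure D1:**
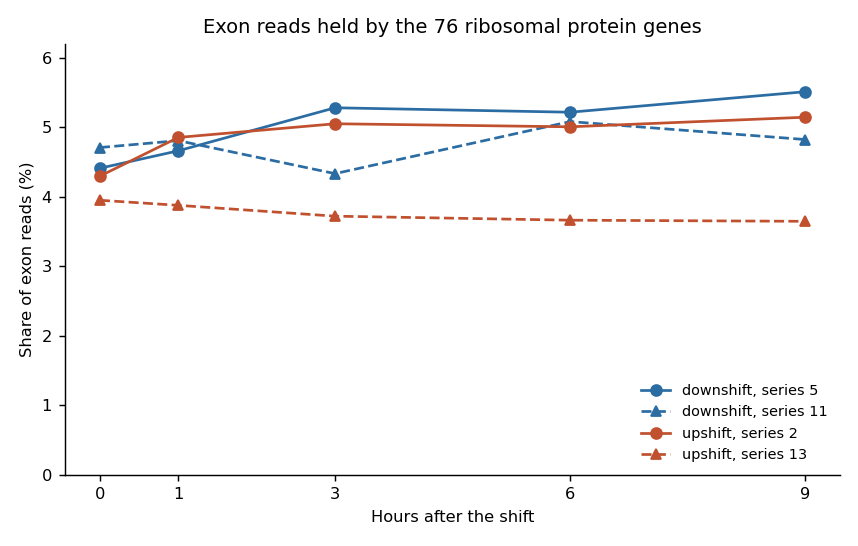
Share of exon reads held by the 76 ribosomal protein genes (y axis, percent) by hours after the shift (x axis), with 1 line for each column series and no replicate. The share was higher at 9 h than at 0 h in series 5, 2 and 11, and lower in series 13, where it fell from 3.95 to 3.65%.

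After the downshift, 50 of the 76 genes rose on exon reads and none fell, against 15.7% of all tested genes that rose and 16.4% that fell. The fitted change from 0 to 9 h was above 0 in 75 genes and ranged from -0.04 for Rpl27a to 0.39 for Rps16, with a median of 0.19 on the log2 scale (0.00 for all genes). Both subunits took part, with 21 of 31 genes of the 40S (median 0.19) and 29 of 45 of the 60S (median 0.18). The standard error of one gene was about 0.06. Calls are from edgeR's quasi-likelihood test with Benjamini-Hochberg adjustment over all tested genes at 0.05. Without the row named Rpl24, 49 of 75 rose.

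The rise differed between the pairs of column series. In series 2 and 5 alone 26 genes rose, with a median of 0.29 (10.3% of all genes rose there), and in series 11 and 13 alone 1 rose, with a median of 0.06 (10.1%). The change after the downshift was larger in series 2 and 5 for 74 of the 76 genes. At 3 h the median gene stood 0.28 above its 0 h level in series 5, with all 76 above it, and 0.09 below it in series 11, with 3 above it. The number of calls also rested on the ends of the course. With the downshift 0 h sample left out 2 genes remained called (7.13% of all genes rose there), with the 9 h sample left out 9 (7.59%), with the 6 h sample 17 (9.38%) and with the 1 h sample 24 (10.2%), while the median stayed between 0.18 and 0.19. A step model that sets 0 h against 3, 6 and 9 h called 0, where 1.2% of all genes were called higher.

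**Figure D2:**
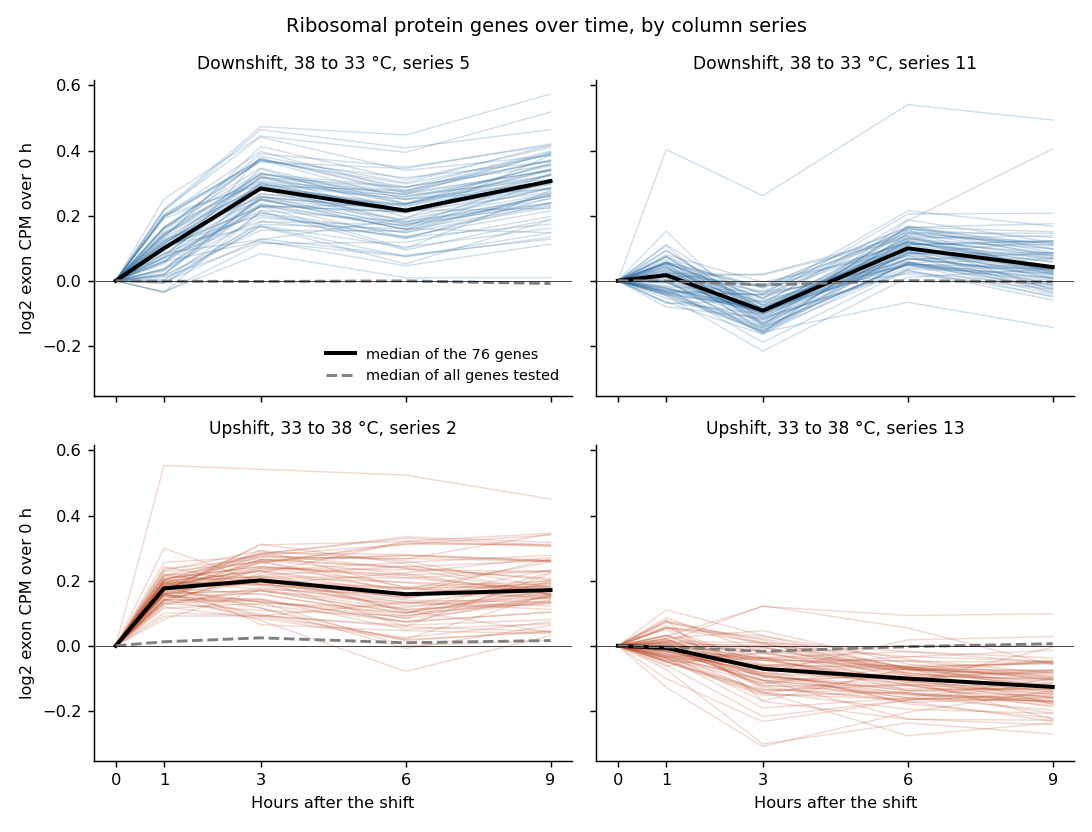
Exon level of each of the 76 genes as log2 CPM over its own 0 h value (y axis) by hours after the shift (x axis), in each course and column series. Thin lines are genes, the black line their median and the dashed grey line the median of all genes tested. The median gene reached 0.31 at 9 h in series 5 and 0.04 in series 11, and 0.17 in series 2 and -0.13 in series 13.

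After the upshift, 2 of the 76 genes rose and none fell, against 16.3% of all genes that rose and 17% that fell. The median fitted change was 0.01. Here too the pairs went apart, and in opposite directions. Series 2 and 5 gave a median of 0.14 with 8 genes that rose (15% of all genes rose there). Series 11 and 13 gave a median of -0.14 with none that rose (10.7% of all genes) and 1 that fell (11.9%). The change was larger in series 2 and 5 for 76 of the 76 genes. Without the upshift 0 h sample 0 genes rose (8.48% of all genes) and 1 fell (10.1%), with a median of -0.09. Without the 6 h sample 0 rose (10.2%), and without the 9 h sample 1 rose (13.3%).

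The difference between the shifts, which asks whether the slope of one course differs from that of the other, was called for 24 genes. In 23 of them the change after the downshift was the more positive, against 23.4% of all genes, and in 1, Rpl27a, the more negative, against 23.1%. The share of higher calls among the 76 genes is near that of all genes, and nothing particular to these genes is read from it. The median difference was 0.18, and 70 of the 76 genes had a difference above 0. With the pairing chosen, the medians of the pairs were closer than within either course, 0.16 in series 2 and 5 and 0.20 in series 11 and 13. The other pairing, of series 5 with 13 and 11 with 2, was not fitted. The closeness is therefore not read as replication. In 59 genes the difference was above 0 in both pairs and in 3 it was below 0 in both. Across the 76 genes the differences of the pairs had a Pearson correlation of 0.62 and a Spearman correlation of 0.704, as a description over genes that share their libraries. In 1 pair alone 3 genes were called higher in series 2 and 5 (18.4% of all genes) and 10 in series 11 and 13 (18.9%).

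Leaving out single samples moved the count of 23. It was 6 without the downshift 0 h sample (17.9% of all genes were called higher there), 15 without 1 h (20.6%), and 12 without 6 h (20.4%) or 9 h (19.9%) of that course. It was 40 without the upshift 0 h sample (18.6%), 13 without 1 h (21.1%), and 12 without 6 h (19.8%) or 9 h (22.6%) of that course. Under DESeq2's size factors 36 genes were called higher (25.6% of all genes) and 0 lower (21.5%). Without the row named Rpl24 the counts were 22 and 1 of 75.

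**Figure D3:**
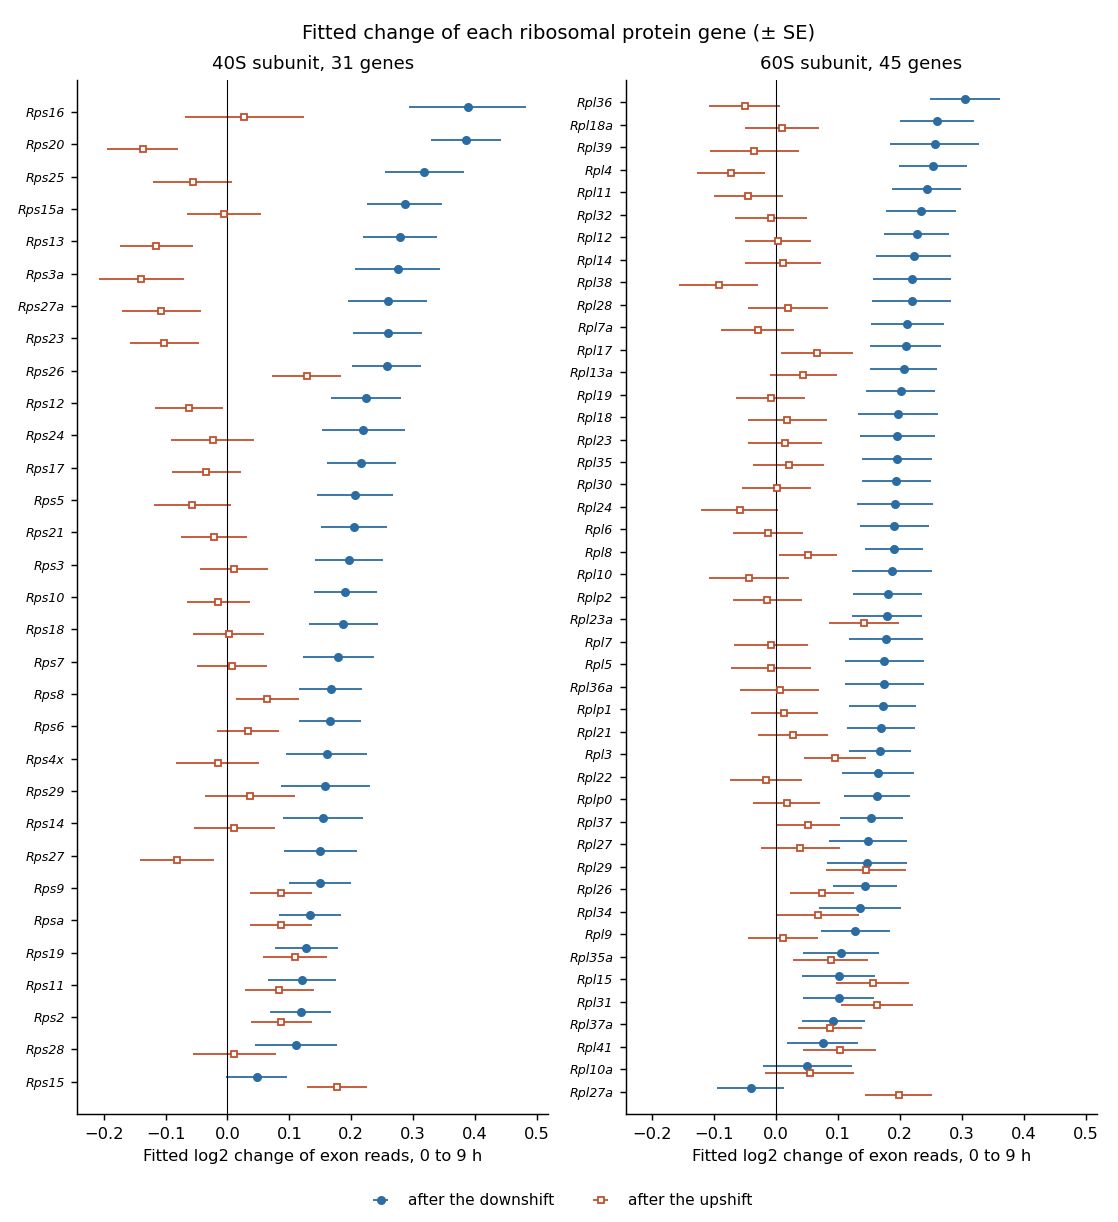
Fitted log2 change of exon reads from 0 to 9 h for each gene (x axis) after the downshift (filled circles) and after the upshift (open squares), with bars of 1 SE, for genes of the 40S and the 60S sorted by the downshift. Downshift values lie above 0 in 75 genes, and upshift values spread around 0, from -0.14 for Rps3a to 0.20 for Rpl27a.

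Rps20, a protein of the head of the small subunit, had the largest difference. Its exon level was 663, 728, 772, 831 and 870 CPM at 0, 1, 3, 6 and 9 h of the downshift, as the mean of both columns, each above the one before. In series 11 alone the 3 h value, 676 CPM, was below the 0 h value of 701. In the upshift course the mean was 758, 795, 760, 710 and 712 CPM, highest at 1 h and lowest at 6 h. The fitted change was 0.38 ± 0.06 after the downshift (adjusted p = 0.00233) and -0.14 ± 0.06 after the upshift (adjusted p = 0.0925). Their difference was 0.52 ± 0.08 (adjusted p = 0.000758, edgeR quasi-likelihood test, Benjamini-Hochberg). It was 0.60 in series 2 and 5 and 0.43 in series 11 and 13, and was called in each.

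The next 4 were also genes of the 40S. Rps3a, at the platform side of the small subunit, measured 812, 838, 909, 946 and 971 CPM in the downshift course and 917, 990, 915, 845 and 878 CPM in the upshift course, with a difference of 0.41 ± 0.10. Rps13 measured 241, 259, 273, 288 and 290 CPM against 276, 288, 270, 259 and 264 CPM, with a difference of 0.39 ± 0.08. These are means of both columns, and the columns differed. In series 11 Rps3a measured 821, 785, 765, 870 and 872 CPM, and Rps13 was lower at 3 h (249 CPM) than at 0 h (267 CPM). Rps25, which many viral and some cellular internal ribosome entry sites need, had 467, 472, 523, 550 and 576 CPM against 531, 572, 558, 524 and 527 CPM, a difference of 0.37 ± 0.09. Rps27a, which is made as a fusion with ubiquitin, had 476, 510, 539, 561 and 567 CPM against 490, 527, 497, 466 and 474 CPM, a difference of 0.37 ± 0.09. The differences of Rps20, Rps3a, Rps13 and Rps25 stayed called with each of the 10 samples left out in turn, and that of Rps27a was lost without the downshift 0 h sample (adjusted p over both pairs of series 0.00641, 0.00393, 0.00729 and 0.00852 for Rps3a, Rps13, Rps25 and Rps27a, edgeR). Within single pairs, Rps13 was called in both, Rps3a was not called in series 11 and 13 (adjusted p = 0.0556), and Rps25 (0.132) and Rps27a (0.0747) were not called in series 2 and 5. In the 60S the largest differences were those of Rpl36 (0.36), Rpl4 (0.33), which lines the exit tunnel, and Rpl38 (0.31).

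Rps16 and Rpl27a stood at the ends of the range after the downshift. Rps16 had the largest change after the downshift, 0.39 ± 0.10 (adjusted p = 0.0135, edgeR), with 192, 227, 219, 247 and 260 CPM. Its difference between the shifts was 0.36 ± 0.14 and was not called (adjusted p = 0.0507, edgeR). In the upshift course 70 of the 76 genes had a change above 0 in series 2 and 5, and 3 had one in series 11 and 13. For Rps16, series 2 measured 171, 250, 248, 245 and 233 CPM, and series 13 measured 223, 216, 202, 184 and 189 CPM. Its difference between the shifts was -0.03 ± 0.23 in series 2 and 5 and 0.73 ± 0.16 in series 11 and 13, and its call after the downshift was lost without the 0 h or the 9 h sample. Rpl27a measured 359, 349, 351, 352 and 343 CPM in the downshift course and 279, 296, 297, 318 and 322 CPM in the upshift course, as means of both columns. The courses overlapped in series 2 and 5, where the upshift 9 h value, 384 CPM, was above each downshift value (350 to 380 CPM). It rose after the upshift by 0.20 ± 0.05 (adjusted p = 0.0198, edgeR), and its difference was -0.24 ± 0.08 (adjusted p = 0.0268, edgeR). The difference was not called in series 2 and 5 alone (adjusted p = 0.0627, edgeR) or in series 11 and 13 alone (0.357), and was lost without the 0, 6 or 9 h sample of either course. The rise after the upshift was 0.35 in series 2 and 5 and 0.01 in series 11 and 13, and was lost without the upshift 0, 6 or 9 h sample. Rps15 was the other gene that rose after the upshift, by 0.18 ± 0.05 (adjusted p = 0.0215, edgeR), from 747 CPM at 0 h to 797, 830, 852 and 845 CPM. That rise was 0.31 in series 2 and 5 and 0.01 in series 11 and 13, and was lost without the upshift 0 or 6 h sample.

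By place in the ribosome, the stalk genes Rplp0, Rplp1, Rplp2 and Rpl12 all rose after the downshift, by 0.16, 0.17, 0.18 and 0.23, each with an SE of 0.05 or 0.06. The rise stayed called in 5 (Rplp0), 6 (Rplp1 and Rplp2) or 8 (Rpl12) of the 10 fits with a sample left out. Of the stalk genes, Rpl12 alone was called between the shifts (0.22 ± 0.08). That call held in 3 of the 10 fits with a sample left out and in neither pair of series alone (adjusted p = 0.0843 in series 11 and 13 and 0.2 in series 2 and 5, edgeR). Of the pair that forms the 5S RNP, which binds Mdm2 when ribosome assembly fails, Rpl11 rose by 0.24 ± 0.06, and Rpl5 had 0.18 ± 0.06 and missed the threshold (adjusted p = 0.0614, edgeR). Whether Rpl11 and Rpl5 differed was not tested. The rise of Rpl11 stayed called in 8 of the 10 fits with a sample left out. All 6 genes of the peptide exit tunnel rose after the downshift (0.18 to 0.26), where 50 of the 76 genes and 15.7% of all genes rose. Of the 6, 2 were called between the shifts, Rpl4 and Rpl39 (0.29). Rps6, the substrate of S6 kinase, rose by 0.17 ± 0.05 and did not pass between the shifts (0.13 ± 0.07). Its rise stayed called in 6 of the 10 fits with a sample left out. Of Rps2 and Rps3, at the mRNA entry channel, Rps3 rose (0.20) and Rps2 had 0.12 ± 0.05. Among the 18 genes mutated in Diamond-Blackfan anemia, 9 rose after the downshift (50 of the 76 genes and 15.7% of all genes) and none fell. Of the 18, 5 were called higher between the shifts (23 of the 76 genes and 23.4% of all genes), with Rps15a (0.29) and Rpl11 (0.29) the largest.

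Genes with and without a small nucleolar RNA can be set side by side, without a test. GENCODE M21 places 1 or more inside 29 of the 76 genes. Of these, 23 rose after the downshift (median 0.20), and of the other 47 genes 27 rose (median 0.18), against 15.7% of all tested genes. Between the shifts 10 of 29 and 13 of 47 were called higher, against 23.4% of all tested genes. The genes are short, with 52 of 76 under 1000 nt of mRNA. Among tested genes outside the set with an mRNA under 1000 nt, the median change after the downshift was 0.03 and 13% rose.

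At 0 h, after 16 h at one temperature, levels at 33 °C and at 38 °C could be set side by side with 1 sample each and no test. The median log2 difference, 33 minus 38 °C, was -0.05, and 27 of 76 genes were higher at 33 °C. No gene was past 1.5-fold in either direction, where 11.4% of all genes were higher and 9.04% lower by that size. The pairs of series disagreed in direction, with medians of 0.08 in series 2 and 5 and -0.19 in series 11 and 13. The lowest were Rps2 (695 CPM at 33 °C and 903 at 38 °C, -0.38), Rpl27a (-0.36) and Rpl23a (-0.32), and all 3 were lower in both pairs. The highest were the row named Rpl24 (0.28), Rps13 (0.19) and Rps20 (0.19), and all 3 were higher in both pairs, Rps13 by 0.40 and 0.01. On intron reads the median was -0.19 (-0.27 for all genes), with 3 genes past 1.5-fold lower and none past it higher, against 17% and 2.86% of all genes.

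**Figure D4:**
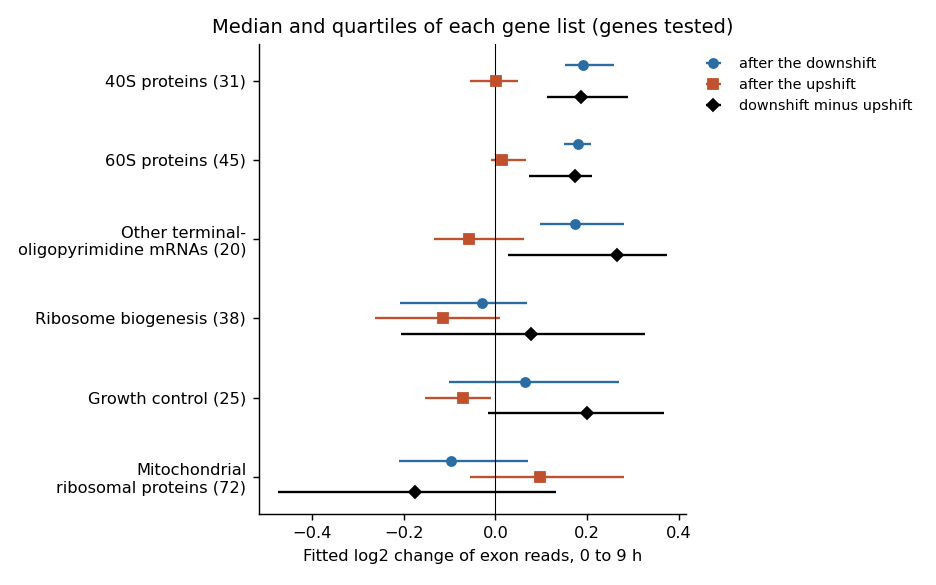
Median and quartiles of the fitted log2 change of exon reads from 0 to 9 h (x axis) in 6 gene lists, with the number of genes tested in brackets, after the downshift, after the upshift and as the difference. The lists are described beside each other without a test. The 40S and 60S medians after the downshift are 0.19 and 0.18, and that of the mitochondrial ribosomal proteins is -0.10.

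Other genes of translation were compared through lists. Of all tested genes 15.7% rose after the downshift, 17% fell after the upshift, and 23.4% were higher and 23.1% lower between the shifts. Of 20 other tested mRNAs with the terminal oligopyrimidine motif, mostly translation factors, 8 rose after the downshift, 3 fell after the upshift and 7 were called higher between the shifts, with a median difference of 0.27. Among them the differences of Eif2s3x (0.59 ± 0.12), Eif3l (0.57 ± 0.10), Eef1b2 (0.50 ± 0.09) and Eif3e (0.45 ± 0.10) were each above those of the 76 genes other than Rps20. Of 7 tested ribosomal genes that the rule left out, Fau, whose product includes a small-subunit protein, was higher (0.32 ± 0.08) and Rps27l, a paralog of Rps27, lower (-0.29 ± 0.10). The mitochondrial ribosomal proteins, which serve the separate ribosome of mitochondria, gave 10 higher and 26 lower of 72, with a median of -0.18. Their range was wide, from -1.26 for Mrpl24 to 1.56 for Mrps9, with Mrps12 at -1.08 and Mrps34 at 1.02. Of 38 ribosome biogenesis factors 6 were higher and 2 lower (median 0.08), among them the nucleolar helicase Ddx21 (0.79 ± 0.20) and nucleolin, Ncl (0.62 ± 0.19), both higher. Rrs1 (-0.64 ± 0.27, adjusted p = 0.0745, edgeR) and Wdr43 (0.59 ± 0.26, adjusted p = 0.0889, edgeR) had differences of like size and were not called. Of 25 genes of growth control 8 were higher and 3 lower (median 0.20). Deptor, an inhibitor of mTOR (1.52 ± 0.33), and the S6 kinase genes Rps6kb1 (1.00 ± 0.11) and Rps6kb2 (0.79 ± 0.16) were higher, and Ddit4, another inhibitor of mTOR, had -1.02 ± 0.41 and was not called (adjusted p = 0.064, edgeR).

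Intron reads, a proxy for unspliced precursor, could be tested in 74 genes. For Rpl9 and Rps13 the union of the exons annotated in GENCODE M21 leaves no intron base, so the intron filter could not be applied. Rps13 still had 18.6 to 23.8 intron CPM, so the counting did not rest on that union of exons. The genes had few intron reads: the median ratio of intron to exon reads was 0.0655, against 0.526 for all genes tested. After the downshift 2 genes fell and none rose, Rpl11 and Rps28, against 4.13% of all genes that fell and 0.567% that rose. The median change was -0.09, with -0.13 for all genes. After the upshift Rpl11 alone rose, against 4.97% of all genes that rose and 0.609% that fell, and the median was 0.08, with 0.17 for all genes. Between the shifts Rpl11 and Rps28 were lower, against 17.5% of all genes lower and 1.5% higher, and the median was -0.16, with -0.30 for all genes. Few of these genes were called, and the medians lay nearer 0 than those of all genes. Between the shifts 7 genes were lower without the downshift 0 h sample, and 1 without the downshift 6 or 9 h or the upshift 0, 6 or 9 h sample. The 2 genes lower after the downshift became 0 without its 0 or 6 h sample, and 1 without its 1 or 9 h or the upshift 3, 6 or 9 h sample. Of all genes, 0.535% were lower without the downshift 0 h sample, 0% without its 6 h sample, and 1.36 to 2.68% in the others. The 1 gene higher after the upshift became 2 without the downshift 0 h sample, where 9.44% of all genes were higher. Between 7.66 and 21.3% of all genes were lower between the shifts with a sample left out.

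Rpl11 stood apart from the others on introns. Its intron level was 60.6, 42.7, 39.2, 27.7 and 25.9 CPM at 0, 1, 3, 6 and 9 h of the downshift and 23.4, 36.2, 39.9, 43.1 and 41.4 CPM after the upshift. The first course fell at every step, and the second was lowest at 0 h and highest at 6 h. Its exon level went the other way and by less, from 336 to 397 CPM after the downshift, and was 352 CPM at 0 h and 351 CPM at 9 h of the upshift. The intron change was -1.20 ± 0.17 after the downshift (adjusted p = 0.0128, edgeR) and 0.77 ± 0.18 after the upshift (adjusted p = 0.0369, edgeR). The difference was -1.97 ± 0.25 (adjusted p = 0.00195, edgeR), with -2.04 in series 2 and 5 and -1.90 in series 11 and 13, and stayed called with each sample left out in turn. The downshift call was lost without the 0 h or 6 h sample of that course. The upshift change was lost without the downshift 6 h sample or the upshift 0, 3, 6 or 9 h sample, and was 0.32 at its lowest.

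Where in the gene these reads lie is not given by a sum over introns. The annotation used in the counting is not given and may place introns otherwise than GENCODE M21. GENCODE M21 places Rpl11 on chromosome 4 at 136028265 to 136053428 (GRCm38, minus strand), and 20995 of its 22467 intron bases lie outside the span of its RefSeq-linked mRNAs, within longer annotated transcripts. Rps28 (chromosome 17, 33819027 to 33824562, minus strand) has all 3817 intron bases outside that span and overlaps Kank3 on the other strand. Its intron level was 17.2, 17.6, 15.8, 12.4 and 11.7 CPM after the downshift and 11.3, 12.6, 12.9, 12.9 and 13.1 CPM after the upshift. Its downshift values were lower at 6 and 9 h than before, and its upshift values changed little after 1 h. The change was -0.62 ± 0.15 after the downshift (adjusted p = 0.0427, edgeR) and the difference -0.81 ± 0.21 (adjusted p = 0.0232, edgeR). The difference was lost without the 6 or 9 h sample of the downshift or the 0, 6 or 9 h sample of the upshift. Neither labels nor headers say whether the counting used strand, so the part of Kank3 reads in the Rps28 value was not tested.

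**Figure D5:**
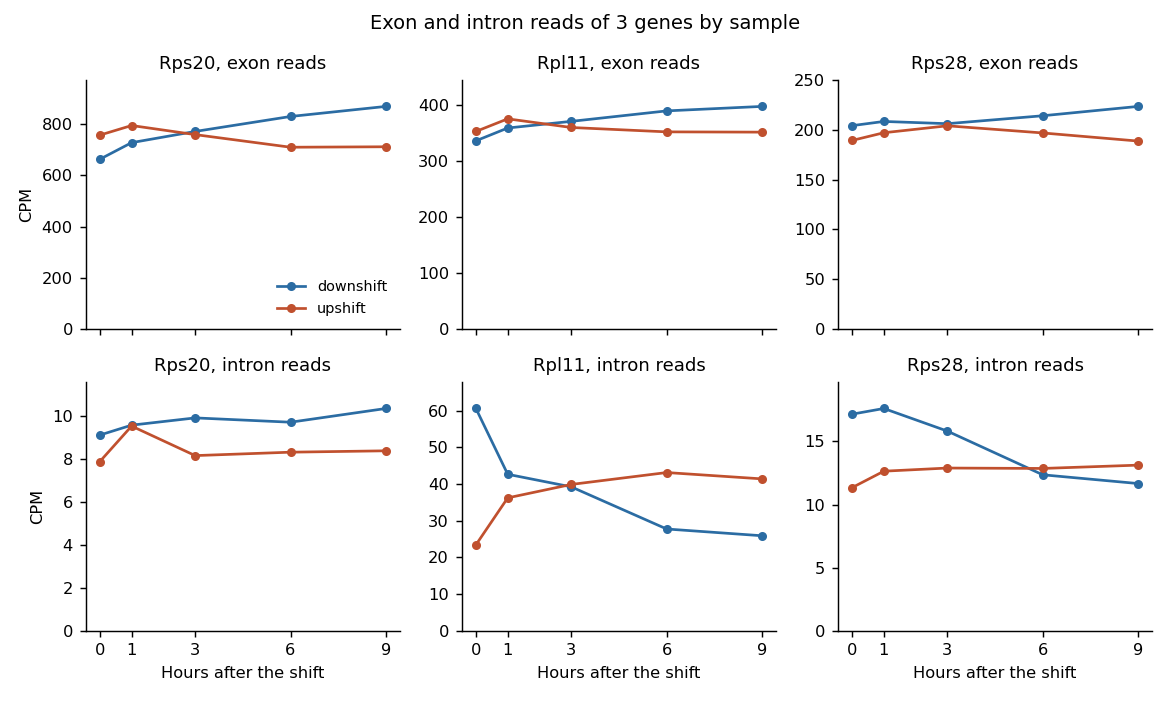
Exon reads (top) and intron reads (bottom) of Rps20, Rpl11 and Rps28 in CPM (y axes, from 0) by hours after the shift, with 1 point for each sample, the mean of its 2 columns. Rpl11 intron reads fell from 60.6 to 25.9 CPM after the downshift and stood at 23.4 and 41.4 CPM at 0 and 9 h of the upshift.

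The exon-to-intron ratio rises when mature RNA gains on its precursor. Its test entered the exon and intron counts of a sample as separate libraries. They come from the same library and are not independent, so the SEs and calls of the ratio are uncertain to that extent. The ratio was higher in 3 of 74 genes after the downshift (2.53% of all genes) and lower in none (0.31%). The 3 higher genes were Rpl11 (1.45 ± 0.19), Rps28 (0.73 ± 0.14) and Rps24 (0.50 ± 0.12). Of the 3579 intron bases of Rps24 in GENCODE M21, 3482 lie outside the span of its RefSeq-linked mRNAs. The same holds for most intron bases of Rpl11 and all of Rps28. The median of the 74 was 0.26, with 0.12 for all genes. After the upshift Rpl11 alone was lower (-0.81 ± 0.19), against 4.46% of all genes lower and 0.225% higher, and the median was -0.07, with -0.17 for all genes. Between the shifts 10 of 74 were higher and none lower, against 15.3% and 1.86%. The largest were Rpl11 (2.26 ± 0.27), Rps16 (1.03 ± 0.32) and Rps10 (0.92 ± 0.25). The median difference was 0.33, with 0.28 for all genes. In the fit of all 10 samples the count and the median were thus both close to those of the whole table. Without the downshift 0 h sample the median was 0.62, with 0.30 for all genes. In 65 of the 74 genes the difference was above 0 in both pairs of series. In series 2 and 5 alone 2 genes were called higher (5.43% of all genes), and in series 11 and 13 alone 1 (3.16%). The count of 10 became 27 without the downshift 0 h sample, 4 without its 1 h, and 3 without its 6 or 9 h sample. It became 6 without the upshift 0, 1 or 9 h sample and 3 without its 6 h sample. Of all genes, 7.68 to 15.3% were higher in these fits. The count of 3 after the downshift became 7 without the 3 h sample, where 2.63% of all genes were higher. It became 1 without the 6 h (0.246%) or the 9 h sample (0.631%). The fall of Rpl11 after the upshift was lost without the 0 or 6 h sample. Rps10 overlaps the annotated read-through gene RPS10-NUDT3 on the same strand, and its intron level was 48.2, 49.4, 53.7, 38.6 and 35.4 CPM after the downshift and 29.4, 31.3, 34.7, 34.9 and 34.7 CPM after the upshift. The call of Rps16 was lost without the 1, 6 or 9 h sample of either course, and that of Rps10 without the 6 or 9 h sample of the downshift or the 0 or 6 h sample of the upshift.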

How the data were processed

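The deposited tables hold estimated counts of exon and intron reads for each gene, although their name speaks of RPKM: column totals differ, and 22.9% of nonzero exon values were whole numbers (tolerance 1e-06). The authors aligned reads to mm10 with STAR and used bedtools, per the submitters' processing notes. Versions, annotation and the rule for shared reads are not given in these sources. The estimated counts were rounded and tested with edgeR's quasi-likelihood test (edgeR 4.0.16, R 4.3.3) in place of limma on log2 RPKM (limma 3.58.1), which suits normalized values and was kept as an alternative beside DESeq2 1.42.0. Both columns of a sample were TMM-scaled, summed (gene-wise offsets carried the mix of series) and counted as 1 sample. Each course had its own intercept and its own slope over log2(h + 1). Changes are that slope scaled to 0 to 9 h, and each SE is the size of the change divided by the root of its F statistic. With 1 sample per time, the spread mixes scatter between samples with lack of fit. Tested were 10174 genes with mean exon RPKM of 1 or more, and 9353 of them for introns and ratios, where mean intron RPKM had to reach 0.05. All 76 genes passed on exons and 74 on introns. Levels are the mean CPM of both columns, and RPKM uses GENCODE M21 lengths. Alternatives were scaling, single pairs of series, time scale, filters, tools and each sample left out; those with the RefSeq mRNA length and without the row named Rpl24 were chosen after seeing the data.

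Named are, for each contrast and direction, the called genes with the largest change (5 for exons, 3 for introns and ratios; without calls the 3 with the lowest p), the highest and lowest levels, the stalk, the 5S RNP, Rps27a and Rps6, up to 4 genes of each list with the largest difference, and the largest differences at 0 h. Genes and lists were chosen with earlier results of these data known.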

Additional observations from a re-analysis of the deposited data

Results flagged for a closer look

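The following differed between the shifts by the test of the difference itself (log2, downshift minus upshift). On exon reads they were Rps20 (0.52), Rps3a (0.41), Rps13 (0.39), Rps25 (0.37), Rps27a (0.37), Rpl11 (0.29), Rpl12 (0.22) and Rpl27a (-0.24). On intron reads they were Rpl11 (-1.97) and Rps28 (-0.81). On the exon-to-intron ratio they were Rpl11 (2.26), Rps16 (1.03) and Rps10 (0.92). Those of Rps20, Rps3a, Rps13 and Rps25 on exon reads and both of Rpl11 on introns and the ratio stayed called with each sample left out in turn. In single pairs of series, Rpl12, Rpl27a and Rpl11 on exon reads were called in neither, and Rps3a, Rps25 and Rps27a in 1 of the 2.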

How the results depend on the processing

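Among the 34 called values of named genes, no sign changed under any alternative. The signs of the other called genes were not compared. With series 2 and 5 alone, 26 genes rose on exon reads after the downshift (median 0.29), 8 after the upshift (0.14), and 3 were higher and 0 lower between the shifts. With series 11 and 13 alone the counts were 1 (0.06), then 0 higher and 1 lower (-0.14), then 10 higher and 0 lower. Introns gave 1 and 0 lower genes after the downshift in these pairs (7.17 and 0.0321% of all genes). In the second pair 0 were higher after the upshift (0.674%) and 1 was lower between the shifts (2.92%). The ratio gave 1 higher after the downshift in the second pair (0.0962%) and 0 lower after the upshift in both (0.267 and 0.973%). Between the shifts it gave 2 and 1 higher (5.43 and 3.16%). The share of reads moved by 1.1 and 0.115 percentage points after the downshift and by 0.847 and -0.303 after the upshift, and the medians at 0 h were 0.0771 and -0.185 on exons and -0.00347 and -0.405 on introns.

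On exon reads, no filter on low values gave 23, 0 and 13 higher (0 lower) for these 3 comparisons in the same order. Of all genes, 7.35, 6.36 and 12.4% were higher there. The step model gave 0, 0 and 1 higher (0 lower), where 1.2, 2.78 and 11.7% of all genes were higher. Linear hours gave 1 and DESeq2's Wald test 4 higher after the upshift (12.7 and 18.8% of all genes). DESeq2 size factors gave 36 higher and 0 lower for the difference (25.6 and 21.5% of all genes). Time point as a block gave 14 and 0 (20.4 and 19.8%). Linear hours gave 0 intron genes lower after the downshift (0.267% of all genes), 0 higher after the upshift (2.41%) and 4 lower between them (7.31%). Ratios gave 5 higher after the downshift (0.727%) and 0 lower after the upshift (1.43%) on that scale. No filter gave 6 higher ratios between the shifts (6.71% of all genes). With 1 sample in each group, the time point was the block that pairs the courses.

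With each sample left out, ranges were 2 to 57 higher after the downshift, 0 to 3 higher, 0 to 1 lower and medians of -0.09 to 0.03 after the upshift, and 6 to 40 higher, 0 to 1 lower and medians of 0.15 to 0.27 for the difference. For introns they were 0 to 2 lower (medians -0.38 to 0.03), 0 to 2 higher, and 1 to 7 lower (-0.48 to -0.05), and for ratios 1 to 7 higher (0.15 to 0.55), 0 to 1 lower, and 3 to 27 higher (0.20 to 0.62). Of all genes, 7.13 to 17.2%, 8.48 to 17% and 17.9 to 24.3% were higher on exon reads, in the same order. For introns 0 to 9.46% were lower, 0.128 to 9.44% higher and 7.66 to 21.3% lower. For ratios 0.246 to 3.66% were higher, 0.46 to 5.81% lower and 7.68 to 15.3% higher. Of 34 called values of named genes, 8 stayed called in all of these. The cause of these shifts was not tested.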
